A study of Bos taurus with 6 samples.

Results

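The let-7 and miR-98 family was examined in small RNA of cultured bovine cells, 3 libraries of adipocytes and 3 of preadipocytes. Its members were taken by name, as the known-miRNA rows whose identifier begins with bta-let-7 and the row of bta-miR-98. This gave 10 rows of the 771 known miRNAs: bta-let-7a-5p, bta-let-7a-3p, bta-let-7b, bta-let-7c, bta-let-7d, bta-let-7e, bta-let-7f, bta-let-7g, bta-let-7i and bta-miR-98. The table calls the rows of let-7b, let-7d, let-7e and let-7f hairpin rows and the other 6 mature rows, and what that changes in the counting is not given in the sources used here. Both groups were Holstein cells of adipose tissue at passage 4 to 6, kept in F12/DMEM medium supplemented with fetal bovine serum and antibiotics. Cell type is the label that sets the groups apart. The growth protocol describes induction with insulin, dexamethasone, rosiglitazone and IBMX, a cocktail of an insulin signal, a glucocorticoid, a PPARG agonist and a phosphodiesterase inhibitor. That protocol text is the same for all 6 samples, so the preadipocytes were taken as the uninduced cells from their label alone. The labels do not state whether replicates are separate animals or cultures. The p-values therefore refer to the spread among these libraries, part or all of which may be technical.

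The let-7 miRNAs are among the oldest known animal miRNAs. Their main arms are near-identical in sequence, with a shared seed, the stretch that pairs with target messages. They accumulate as cells leave the proliferating, stem-like state, and LIN28 proteins block the maturation of their precursors. Their best-known targets include HMGA2, RAS genes, MYC and LIN28 itself, and in a mouse preadipocyte line let-7 is described as limiting the clonal expansion that precedes fat storage. Mammals carry the family in many gene copies, several of them beside miR-99, miR-100 or miR-125 genes. In the RefSeq gene table of cattle the members had 12 genes.

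The table held between 19292757 and 25801117 reads per library. One miRNA, miR-21-5p, took 64% to 74.1% of miRNA reads in adipocytes and 77.9% to 80.2% in preadipocytes, so any level given as a share of reads depends on it. Rows of genome features (exons, introns, repeats, intergenic stretches) took 10.4%, 12% and 8.21% of the table's reads in adipocyte replicates 1, 2 and 3, against 18.5%, 18.9% and 5.29% in preadipocyte replicates 1, 2 and 3, so the preadipocyte libraries differed among themselves and replicates 1 and 2 were above the other 4 libraries. Marker miRNAs of blood, immune and epithelial cells were low. Blood and immune miRNAs (6 rows) summed to 0.568 to 1.23 counts-per-million (CPM, per library size scaled with edgeR's TMM factors) in adipocytes and 1.96 to 4.97 CPM in preadipocytes. The 4 epithelial ones summed to at most 0.71 CPM in adipocytes against 0.977 CPM in preadipocytes. Endothelial miR-126 arms (2 rows) were not as low, at 43 to 67.9 CPM in adipocytes against 114 to 455 CPM in preadipocytes. The blood and endothelial sums were lower in adipocytes without overlap, where 44.7% of all tested miRNAs did not overlap in either direction. The muscle list (4 rows) summed to 20.6 to 25.8 CPM in adipocytes against 21.3 to 52.9 CPM in preadipocytes. The neural list (3 rows) summed to 60.2 to 68.2 CPM in adipocytes against 53.7 to 95 CPM in preadipocytes. Rows of 6 miRNAs described in fat cells summed to 26854 to 32770 CPM in adipocytes against 25553 to 39567 CPM in preadipocytes, a sum that is mostly miR-143 and overlapped between the groups. The mean of this sum was 30469 CPM in adipocytes against 33122 CPM in preadipocytes, so the list as a whole did not rise. Of the 6, miR-148a (1378 ± 236 CPM in adipocytes against 430 ± 130 CPM in preadipocytes, Benjamini-Hochberg (BH) adjusted p of 0.0309 by edgeR) and miR-33b (37 ± 30.1 CPM in adipocytes against 0.717 ± 0.269 CPM in preadipocytes, BH-adjusted p of 0.0381 by edgeR) rose, while miR-103 and miR-107 had no overlap but did not pass. Single values of miR-143 and miR-378 are not given here. The rows that rose therefore do not stand for the list, whose mean was lower in adipocytes. No row of these marker lists was at 0 in every library. The part of these markers and of preadipocyte replicate 3 in the let-7 values was not tested beyond the values given with and without that library. In bulk samples fewer cells with a miRNA and less of it per cell cannot be told apart.

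As a group the let-7 rows took a larger part of adipocyte than of preadipocyte miRNA reads. They held 11.4%, 10% and 7.63% of miRNA reads in adipocyte replicates 1, 2 and 3, against 5.74%, 7.16% and 5.36% in preadipocyte replicates 1, 2 and 3. The groups did not overlap on this scale. Once the dominant miR-21-5p was taken out of the total, the family held 31.7%, 29.9% and 29.4% of the remaining miRNA reads in adipocytes, against 26%, 33.9% and 27% in preadipocytes, and the groups overlapped. On the TMM scale used for the tests the sum was 77100 ± 7129 CPM in adipocytes against 75379 ± 8378 CPM in preadipocytes (SD, n = 3 each). That is a log2 difference of 0.03. With library totals alone the log2 difference of the sum was 0.67, and with upper-quartile factors it was -0.27. The TMM factors themselves separated the groups, at 1.02 to 1.40 in adipocytes and 0.73 to 0.85 in preadipocytes. Since the members were chosen with earlier results known, the sum was given no p-value.

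The make-up of the family varied between libraries. Its most abundant member, let-7i, had the largest shares in preadipocyte replicates 1 and 2, and the other members together had less there than in the other 4 libraries. Its share of the family's reads was 45.9%, 42.8% and 51.9% in adipocyte replicates 1, 2 and 3, against 69.4%, 67.5% and 49% in preadipocyte replicates 1, 2 and 3. Preadipocyte replicate 3 lay inside the adipocyte range and the other preadipocyte libraries above it. The mean share was 46.9% ± 4.63 in adipocytes against 62% ± 11.3 in preadipocytes (SD, n = 3 each), with a two-sided exact permutation p of 0.2, where 3 libraries against 3 cannot go below 0.1. Adjusted over the 10 members (BH) this permutation p was 0.4. Put as reads of the other 9 rows for each read of let-7i, the values were 1.18, 1.34 and 0.927 in adipocytes, against 0.442, 0.481 and 1.04 in preadipocytes. These ratios do not depend on how libraries are scaled. The 2 libraries with the lowest ratios, preadipocyte replicates 1 and 2, are also those with the most reads in genome-feature rows, and the part of this in the ratios was not tested.

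**Figure D1:**
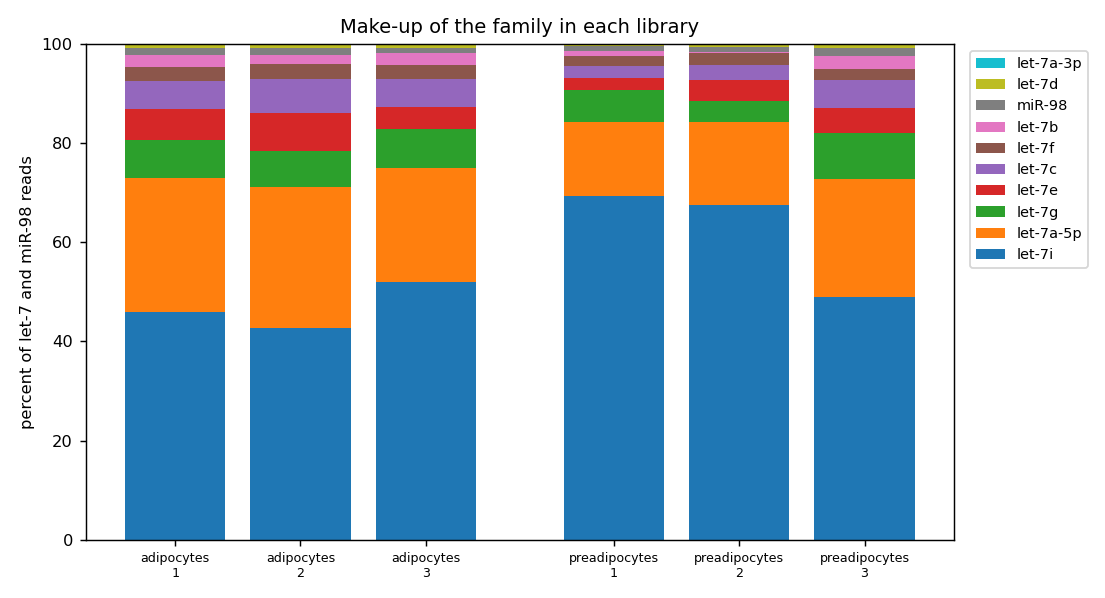
Each bar is 1 library and the stacked segments are the percent of the let-7 and miR-98 reads held by each member (vertical axis, 0 to 100 percent), adipocyte libraries on the left. The let-7i segment is 42.8% to 51.9% high in adipocytes and 49% in preadipocyte replicate 3, and 69.4% and 67.5% in preadipocyte replicates 1 and 2.

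The second most abundant member was let-7a-5p, at a higher mean share in adipocytes than in preadipocytes, with overlap. This mature sequence can come from 3 let-7a genes. It had 467061, 427868 and 336625 reads in adipocyte replicates 1, 2 and 3, against 148751, 174420 and 283180 reads in preadipocyte replicates 1, 2 and 3. Its share of the family was 26.2% ± 2.75 in adipocytes against 18.4% ± 4.66 in preadipocytes (n = 3 each, two-sided exact permutation p = 0.2). Only let-7f, from 2 genes, had shares that did not overlap between the groups. They were 2.91%, 2.88% and 2.72% in adipocytes, against 1.98%, 2.41% and 2.22% in preadipocytes (exact permutation p = 0.1, the smallest that can be reached, and 0.4 adjusted over the members). Measured against the family's reads in the same way, 44.4% of all tested miRNAs did not overlap in either direction, so 1 of 10 is below the background. Without preadipocyte replicate 3 the shares of 9 of the 10 rows did not overlap, against 61.4% of all tested miRNAs. Shares of the members add up to the whole, so a change in let-7i moves the others. The miRNAs outside the family were divided by the same family reads, so a change in let-7i moves their values too.

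The order of the members was nearly the same in every library. As read counts, let-7i was above let-7a-5p and let-7a-5p above let-7g in 6 of 6 libraries. Next came let-7g, let-7e and let-7c, whose neighbours in this order had overlapping CPM ranges in both groups (let-7g above let-7e in 5 of 6 libraries, let-7e above let-7c in 4 of 6). The CPM range of let-7f lay below that of let-7c and above that of let-7b in adipocytes and overlapped both in preadipocytes. The ranges of let-7b and miR-98 overlapped in both groups, while let-7d was below miR-98, and let-7a-3p below let-7d, in every library. These are levels per read, not divided by length, and ligation and PCR can favour 1 small RNA over another.

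**Figure D2:**
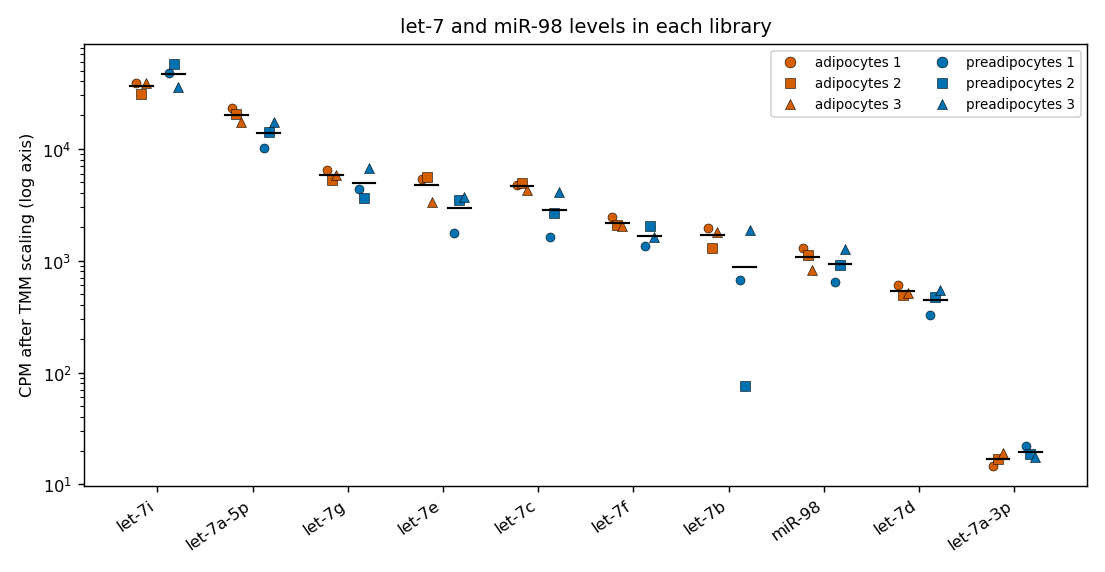
Points are single libraries (adipocytes in orange to the left of preadipocytes in blue, marker shape for replicate number) and black bars are group means, in CPM after TMM scaling on a log axis. Only let-7c has all 3 adipocyte points above all 3 preadipocyte points, and let-7b in preadipocyte replicate 2 lies far below the rest at 75.9 CPM.

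The design asks which miRNAs differ between adipocytes and preadipocytes. All 10 rows passed the low-count filter. In edgeR's quasi-likelihood test over 414 known and predicted miRNAs, 0 of 10 rows passed a BH-adjusted p of 0.05, against 26 of the 414, or 6.28%. At an unadjusted p below 0.05 it was also 0 of 10, against 34.1% of all miRNAs, and 0 of 10 with DESeq2, against 22% of the 528 miRNAs that it gave an adjusted p. The estimates were positive for 8 of the 10, with a median log2 difference (adipocytes over preadipocytes) of 0.33, against -0.02 over all tested miRNAs. The 2 negative ones were let-7i and let-7a-3p, the latter the lesser arm of the let-7a hairpin, with 231 to 376 reads in each library. This balance depends on scaling, with 5 of 10 positive under upper-quartile factors and 10 of 10 with library totals alone. The median over all miRNAs was -0.31 and 0.62 under these scalings. In edgeR's test the members' adjusted p-values ran from 0.179 to 0.674.

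The nearest to the threshold was let-7a-5p, which averaged 20207 ± 2969 CPM in adipocytes against 13892 ± 3578 CPM in preadipocytes. Its log2 difference was 0.54 (SE 0.26, BH-adjusted p of 0.179 by edgeR). In CPM it was 23152, 20255 and 17215 in adipocytes, against 10168, 14206 and 17303 in preadipocytes. The third preadipocyte library was thus level with the lowest adipocyte one.

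The one member without overlap on the TMM scale was let-7c, whose gene lies beside that of miR-99a. Its level was 4746, 4926 and 4310 CPM in adipocytes, against 1618, 2684 and 4128 CPM in preadipocytes. All 3 adipocyte libraries were above all 3 preadipocyte libraries, though preadipocyte replicate 3 came close. Among all tested miRNAs 24.2% had their adipocyte libraries all above, so 1 of 10 rows is below that background. The log2 difference of let-7c was 0.73 (SE 0.35, BH-adjusted p of 0.184 by edgeR). Without preadipocyte replicate 3 the difference of let-7c was 1.10 (SE 0.31, BH-adjusted p of 0.0467 by edgeR) and it passed, the only 1 of the 10 to do so, when 31.8% of all miRNAs passed.

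The most abundant member, let-7i, is a single-copy gene with no other miRNA gene within 10 kb in the RefSeq table. It held 39054, 30627 and 38708 CPM in adipocytes, against 47489, 57177 and 35765 CPM in preadipocytes. The first 2 preadipocyte libraries were above every adipocyte library and the third was among them. The log2 difference of let-7i was -0.37 (SE 0.24, BH-adjusted p of 0.284 by edgeR), and it was 0.24 with library totals alone.

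The other rows overlapped between the groups. In let-7e, beside miR-99b and miR-125a in the genome, CPM was 5340, 5549 and 3324 in adipocytes, against 1781, 3491 and 3678 in preadipocytes (log2 difference 0.67, SE 0.36, BH-adjusted p of 0.215 by edgeR). Adipocyte replicate 3 was below 2 of the preadipocyte libraries. For let-7f the CPM values were 2476, 2061 and 2031 in adipocytes, against 1355, 2038 and 1620 in preadipocytes (log2 difference 0.39, SE 0.24, BH-adjusted p of 0.273 by edgeR), an overlap of only 1 library in each group. The gene of let-7g lies within WDR82, which encodes a subunit of a histone methyltransferase complex, and its level was 6476, 5226 and 5832 CPM in adipocytes, against 4379, 3617 and 6793 CPM in preadipocytes (log2 difference 0.25). Preadipocyte replicate 3 held the highest value of let-7g, and the log2 difference was 0.54 without that library, 0.03 without preadipocyte replicate 2 and 0.06 without adipocyte replicate 3.

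Lower levels were held by miR-98 and let-7d, with miR-98 above let-7d in 6 of 6 libraries. The let-7d gene lies beside those of let-7a-1 and let-7f-1, and that of miR-98 beside let-7f-2 within HUWE1, a ubiquitin ligase gene. Levels of let-7d were 606, 495 and 516 CPM in adipocytes, against 325, 475 and 545 CPM in preadipocytes (log2 difference 0.26). For miR-98 they were 1306, 1128 and 817 CPM in adipocytes, against 644, 910 and 1261 CPM in preadipocytes (log2 difference 0.21). In both, the third preadipocyte library was above at least 1 adipocyte library. The passenger strand let-7a-3p, the arm of the let-7a hairpin that is mostly degraded, had 297, 355 and 376 reads in adipocytes, against 322, 231 and 289 reads in preadipocytes (log2 difference -0.20). It came to 0.636, 0.83 and 1.12 reads for every 1000 of let-7a-5p in adipocytes, against 2.16, 1.32 and 1.02 in preadipocytes, and the groups overlapped.

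How the libraries are scaled decided how many let-7 rows passed. Given as parts of all miRNA reads, 8 of the 10 rows had adipocyte libraries that were all above the preadipocyte ones (let-7i and miR-98 were the exceptions), against 38.6% of all tested miRNAs. With library totals alone in place of TMM factors, 3 of the 10 rose in edgeR's test, when 23.4% of all miRNAs passed in either direction. These were let-7a-5p (log2 difference 1.21, SE 0.28, BH-adjusted p of 0.0268 by edgeR), let-7c (1.41, SE 0.35, BH-adjusted p of 0.0332 by edgeR) and let-7f (1.03, SE 0.29, BH-adjusted p of 0.0475 by edgeR). The same 3 passed in limma's test on log2 of the deposited TPM plus 1, which are also values per library total, when 25.6% of all miRNAs passed.

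A further fit over all 414 miRNAs set each library's size to its own let-7 and miR-98 reads, so that each row is measured against the family. By this measure 0 of the 10 rows passed edgeR's test, against 3.86% of all miRNAs, and 0 at an unadjusted p below 0.05, against 32.1%. The estimates were positive for 8 rows, among them let-7c (log2 difference 0.70, SE 0.35) and let-7e (0.65, SE 0.34), and negative for let-7i (-0.40, SE 0.22, BH-adjusted p of 0.23 by edgeR) and let-7a-3p (-0.24, SE 0.33). The family's reads include the members themselves, and let-7i alone held 42.8% to 69.4% of them. A lower share of let-7i therefore raises the other members, so these signs are not independent of each other. Without preadipocyte replicate 3, let-7a-5p (0.73, SE 0.19, BH-adjusted p of 0.0472 by edgeR) and let-7c (1.14, SE 0.24, BH-adjusted p of 0.0273 by edgeR) rose against the family, when 26.9% of all miRNAs passed, and let-7i was at -0.55 (SE 0.17, BH-adjusted p of 0.0706 by edgeR).

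**Figure D3:**
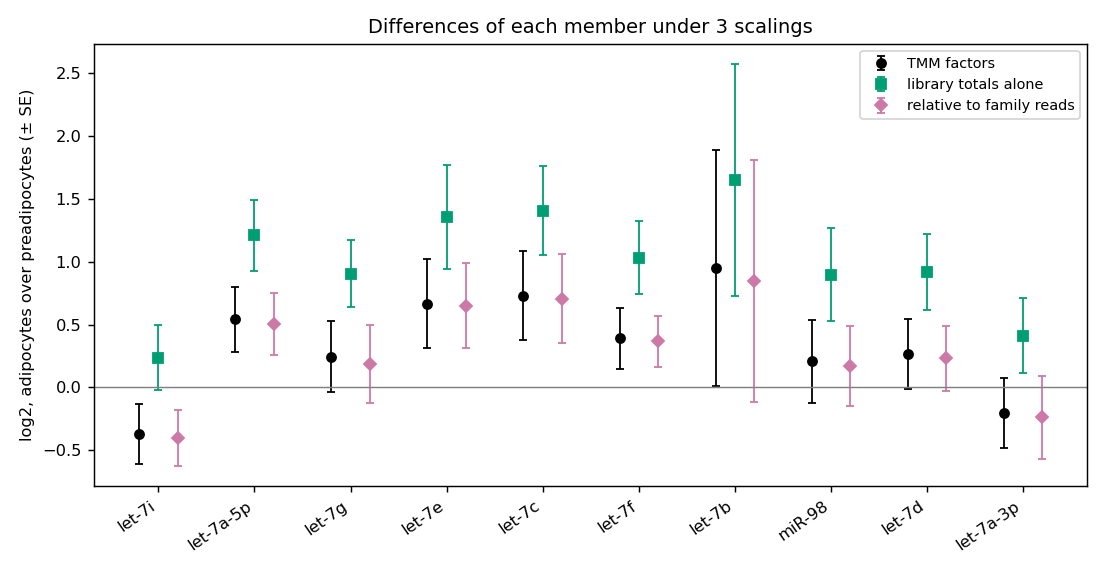
Points are log2 differences of each member, adipocytes over preadipocytes, with bars of 1 SE, from edgeR fits over all tested miRNAs under TMM factors, library totals alone and sizes set to the family's own reads. All 10 points are above 0 with library totals alone, and let-7i and let-7a-3p are below 0 under the other 2 scalings.

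The let-7b row was read together with that of miR-3596. The let-7b gene overlaps that of miR-3596, a row the table's description column also calls let-7. Which row held more reads changed between libraries. How reads matching both rows were counted is not given in the sources used here. Reads of let-7b were 39843, 27117 and 35517 in adipocytes, against 9915, 932 and 30650 in preadipocytes. Those of miR-3596 were 23232, 31791 and 25044 in adipocytes, against 4188, 21319 and 11265 in preadipocytes. In preadipocyte replicate 2 let-7b held 4.19% of the reads of the pair, against 70.3% and 73.1% in the other preadipocyte libraries and 63.2%, 46% and 58.6% in adipocytes. As a sum the pair was at 3127, 2789 and 3097 CPM in adipocytes, against 964, 1812 and 2561 CPM in preadipocytes, with no overlap. On this scale 24.2% of all tested miRNAs had their adipocyte libraries all above. The log2 difference was 0.95 (SE 0.94) for let-7b alone and 0.73 (SE 0.36, BH-adjusted p of 0.185 by edgeR) for the sum, a merged row added after seeing the data. For let-7b alone it was 0.37 without preadipocyte replicate 2, 2.20 without preadipocyte replicate 3 and 1.81 with the replicate block. The sum had the smaller error and did not pass.

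**Figure D4:**
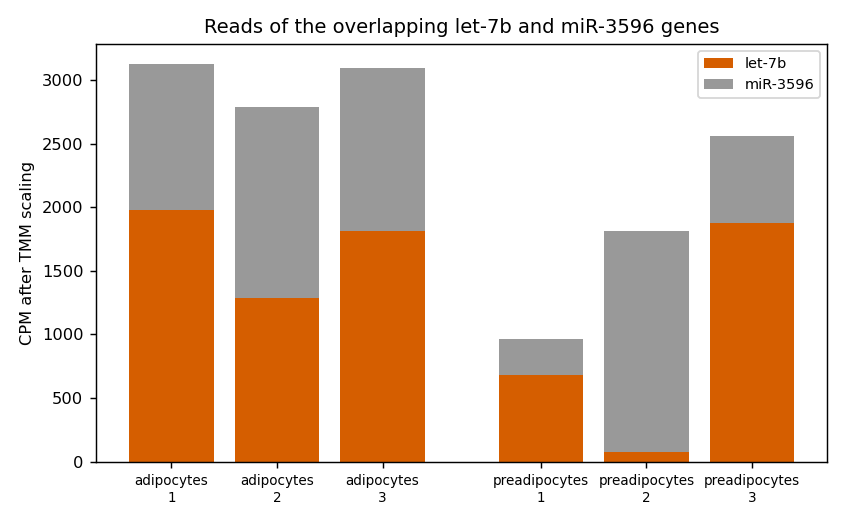
Stacked bars give CPM after TMM scaling of let-7b (orange) and of miR-3596 (grey), whose genes overlap, 1 bar for each library with adipocytes on the left. The stacks are 2789 to 3127 CPM high in adipocytes and 964 to 2561 CPM in preadipocytes, and the let-7b part nearly vanishes in preadipocyte replicate 2.

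The miRNAs whose genes neighbour let-7 genes gave 1 of 8 tested rows past the threshold, higher in adipocytes, and 0 lower, against 6.28% of all tested miRNAs in either direction. The list was that of all miRNAs within 10 kb of a let-7 or miR-98 gene together with the miR-99, miR-100 and miR-125 rows. Its median log2 difference was 0.38, against -0.02 over all tested miRNAs. The row that rose was miR-100, beside let-7a-2, at 4660 ± 445 CPM in adipocytes against 1904 ± 411 CPM in preadipocytes (log2 difference 1.29, SE 0.24, BH-adjusted p of 0.0293 by edgeR). This call was lost with the replicate block (1.31, BH-adjusted p of 0.125 by edgeR) and without each single library other than preadipocyte replicate 3, at log2 differences of 1.16 to 1.29. The reads of let-7a-5p for each read of miR-100 were 4.54, 4.34 and 4.09 in adipocytes, against 5.96, 8.72 and 7.28 in preadipocytes, with no overlap. Since let-7a-5p also comes from 2 other genes, this ratio does not measure the shared locus alone. For ratios of this kind no share over all miRNAs is given here. As levels on the TMM scale, 44.7% of all tested miRNAs did not overlap in either direction.

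Beside let-7c, miR-99a-5p was at 20468 ± 306 CPM in adipocytes against 14026 ± 2773 CPM in preadipocytes (log2 difference 0.55, SE 0.21, BH-adjusted p of 0.117 by edgeR). Reads of let-7c for each read of miR-99a-5p were 0.228, 0.241 and 0.213 in adipocytes, against 0.139, 0.201 and 0.242 in preadipocytes, and the groups overlapped. The estimates of the neighbours of let-7e differed in sign from each other: miR-99b was at 443 ± 22.3 CPM in adipocytes against 624 ± 199 CPM in preadipocytes (log2 difference -0.49, SE 0.29, BH-adjusted p of 0.257 by edgeR) while miR-125a averaged 1208 ± 174 CPM in adipocytes against 1035 ± 239 CPM in preadipocytes (0.22, SE 0.27, BH-adjusted p of 0.567 by edgeR). There were 12.8, 12 and 7.41 reads of let-7e for each read of miR-99b in adipocytes, against 3.08, 4.14 and 8.13 in preadipocytes, so preadipocyte replicate 3 again fell in the adipocyte range. The level of miR-125b differed by 0.21 (SE 0.24), that of miR-99a-3p by 1.57 (SE 0.44, BH-adjusted p of 0.0657 by edgeR, at 1.33 ± 0.133 CPM in adipocytes against 0.447 ± 0.126 CPM in preadipocytes), and that of miR-2443, beside let-7b and let-7a-3, by -0.07 (SE 0.30).

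Among 192 other known miRNAs with a mean of at least 10 CPM, those whose log2 CPM over the 6 libraries was most like that of the summed family, by Pearson r, were miR-2284x (r 0.93, Spearman rho 0.94), miR-204 (r 0.79, rho 0.77), miR-1468 (r 0.75, rho 0.77), miR-32 (r 0.68, rho 0.20) and miR-27b (r 0.67, rho 0.66). The value of miR-32 rests on preadipocyte replicate 2, at 286 CPM, with at most 4.5 CPM in every other library. The points share libraries and scaling factors, and with 6 of them the values describe these libraries only.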

How the data were processed

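Small RNA of 6 libraries was analysed from 1 deposited table of 2213 rows, with columns of counts (whole reads, no normalization by the authors, as the values show) and of TPM, per the file headers. The authors' TPM equals the count over a constant of each library, without a length term. Per the submitters' processing notes the tool was Bowtie2. The build, annotation release and the rule for reads matching several miRNAs are not given in the sources used here.

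Known and predicted miRNA rows (771 and 108) were tested together on counts with edgeR 4.0.16 in R 4.3.3 (TMM, filterByExpr defaults, glmQLFTest with no term but group, two-sided, BH threshold 0.05), leaving 365 known and 49 predicted miRNAs, and tested on simulated data. Rfam, piRNA and genome-feature rows stayed out. Alternatives used limma 3.58.1 (TPM plus 1), DESeq2 1.42.0, other scalings, filters, a replicate block and leaving out each library. Shares were compared by exact permutation (SciPy 1.17.1). Named miRNAs were all members, miRNAs neighbouring let-7 genes and the 5 most alike in pattern. RefSeq ARS-UCD2.0 was used for names and neighbours only. Members and lists were chosen with earlier results of these data known. A count of 0 allowed at most 0.142 to 0.244 CPM (3 counts), for counting error only.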

Additional observations from a re-analysis of the deposited data

Results flagged for a closer look

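A row outside the miRNA rows also carried let-7 reads. The Rfam row named let-7 microRNA precursor, which was used in no comparison, averaged 1121 counts-per-million of all table reads in adipocytes and 312 in preadipocytes. Its reads were 24390, 23527 and 21757 in adipocytes, against 2717, 4658 and 14958 in preadipocytes, so it was looked at again because every adipocyte library was above every preadipocyte one in data outside the main measurement. Such a separation was common: as shares of miRNA reads, a scale like this but not the same, 38.6% of all tested miRNAs showed it. Set against the summed member reads it came to 1.42%, 1.56% and 1.49% in adipocytes, against 0.271%, 0.448% and 1.25% in preadipocytes. Whether these reads are also counted in the miRNA rows is not given in the sources used here, and what sets the row's level was not tested.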

How the results depend on the processing

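No member passed the threshold with TMM factors, and this count of 0 held under DESeq2 size factors, DESeq2, no filter, a minimum of 10 CPM, known miRNAs alone, a table without miR-21-5p, the replicate block (0) and merged let-7b and miR-3596 reads. It was 3 with library totals alone and 3 with limma on deposited TPM, and ran from 0 to 1 when single libraries were left out. Against the family's own reads it ran from 0 to 2, and was 0 with the replicate block, which changed no member's call. Over all miRNAs the count of 26 was 1 with the replicate block, 1 to 148 without single libraries, 43 with a minimum of 10 CPM, 49 with upper-quartile factors, 59 with known miRNAs alone, 97 with library totals, 106 with limma and 116 of 528 with DESeq2. Against the family's reads the count of 16 was 1 with the replicate block, 6 with no filter and 1 to 125 without single libraries. The rows whose family shares did not overlap numbered 1 (44.4% of all miRNAs), and 1 to 9 without single libraries: 9 without preadipocyte replicate 3 (61.4%), 4 without adipocyte replicate 3 (51.4%) and 2 without adipocyte replicate 1 (50%). The summed log2 difference (0.03) was -0.27 with upper-quartile factors, 0.67 with library totals, 0.61 with deposited TPM, and -0.15 to 0.10 without single libraries. Without single libraries the log2 difference ran from 0.35 to 0.71 for let-7a-5p, 0.44 to 1.10 for let-7c, 0.39 to 0.82 for let-7e, 0.24 to 0.53 for let-7f, 0.07 to 0.41 for let-7d and -0.64 to -0.22 for let-7i. Signs turned for let-7d (-0.0328), let-7g (-0.0359) and miR-98 (-0.10) with upper-quartile factors, for let-7i (0.24) and let-7a-3p (0.41) with library totals, for both (0.21 and 0.33) with deposited TPM, and for miR-98 without preadipocyte replicate 1 (-0.013, in a range up to 0.46 without single libraries). Without preadipocyte replicate 2, let-7g turned to -0.0517 against the family (up to 0.51 without other libraries) and its share difference to -0.277 percentage points (up to 2.24). The cause was not tested. Deviations of same-numbered libraries from their group means correlated at 0.04, -0.34 and 0.05. With 3 libraries a group these values cannot show whether replicate numbers pair the libraries, and the labels do not say. Merging members that differ by 1 base, and naming other miRNAs with the same seed, were not run because no sequences were used here. In simulated data of 394 rows at all levels, with 3 libraries a group, edgeR's test called 9.68% of true 2-fold differences. It called 56.25% of 4-fold and 89.4% of 8-fold differences. These rates are over rows of all levels and were not taken for rows as abundant as the members. Among the members the SE of the log2 difference ran from 0.24 for let-7i to 0.94 for let-7b. A count of 0 members past the threshold does not show that they were unchanged.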
